A study of Bos indicus x Bos taurus with 45 samples.

Results

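The microRNAs of the fetal liver were compared between overgrown bovine fetuses with large offspring syndrome (LOS) and control fetuses. The 9 libraries used, of 45 samples in the whole series, were the LOS and control columns of the liver read count table, and every one of its 563 listed miRNAs was examined. The 5 control fetuses were conceived by artificial insemination and are labelled healthy. The 4 LOS fetuses were conceived by assisted reproductive technologies (ART) and carried the overgrowth diagnosis. A further 4 liver samples came from ART fetuses labelled healthy. They entered the statistical fit only to share its estimate of spread, and their levels are given beside some of the results. All fetuses were Bos indicus x Bos taurus crosses collected at about day 105 of gestation, and the liver labels give no sex. LOS and controls therefore differed in both overgrowth and conception, which cannot be told apart from these 2 groups alone. Libraries came from total RNA of whole frozen tissue, made with a small RNA kit and selected for size on a gel.

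MicroRNAs (miRNAs) are short RNAs that guide a silencing complex to messenger RNAs with matching sites. Each is cut from a hairpin whose 2 arms give a guide strand, which is usually kept, and a passenger strand, which is usually degraded and is often marked 3p. The let-7 family, to which miR-98 belongs by its seed, is held low in early embryonic cells by the RNA-binding proteins LIN28A and LIN28B, which block its processing, and becomes abundant as cells differentiate. Its known targets include HMGA2, IGF2BP family members and the RAS genes, all tied to growth. The fetal liver at mid gestation is both a metabolic organ of hepatocytes and a site of blood formation.

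Liver miRNAs were abundant in all 9 libraries. In CPM (counts scaled to a common library size), miR-122, the defining miRNA of hepatocytes, lay between 14164 and 19597 over the 9 libraries. miR-451, of red cell precursors, lay between 12503 and 14564. The muscle miRNAs miR-1, miR-206, miR-208a and miR-208b and the neuronal miR-124, miR-137 and miR-153 were not listed. Other names of these lists were: 3 of the 7 muscle names and 4 of the 9 neuronal names looked for. Not being listed does not show that a miRNA had no reads. The 9 libraries held 3379816 to 4976770 listed reads each, and the lowest count of any listed miRNA in any liver library was 3. No pair of libraries of one group was alike within sampling noise: chi-square divided by its degrees of freedom was 23.9 for the closest pair. LOS 1 had the lowest median correlation of log2 levels with the other 8 libraries, 0.989, close to the 0.991 to 0.993 of the others.

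Members of the let-7 family were higher in LOS liver. In edgeR's quasi-likelihood test, the test meant by a call where no other tool is named, 7 of 563 miRNAs were called at an adjusted p under 0.05 (1.24%). The 6 that rose (1.07%) were let-7a-5p, let-7d, let-7f, let-7g, let-7i and miR-98, all guide strands of the let-7 family. The single miRNA that fell (0.178%) was miR-2408, one of the least abundant miRNAs of the table. Over all 563 miRNAs, 297 had a higher mean and 266 a lower mean in LOS, the median log2 difference was 0.01, and 79 had an unadjusted p under 0.05.

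**Figure D1:**
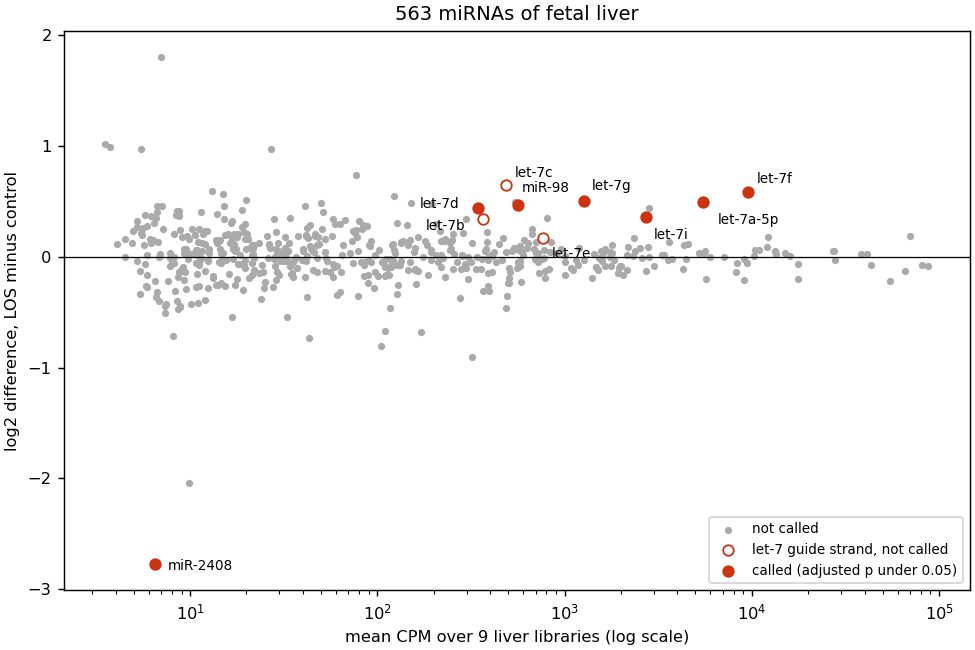
Each point is 1 of the 563 miRNAs of liver, with its mean CPM over the 9 LOS and control libraries on a log axis and its log2 difference, LOS minus control, on the vertical axis. Filled red points are the 7 called miRNAs and open red points the 3 let-7 guide strands that were not called; the let-7 family forms a group above 0 at middle to high levels, and miR-2408 lies alone at the lower left.

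let-7f, the most abundant family member, stood at 7414, 7880, 8152, 7907 and 7702 CPM in controls 1 to 5. In LOS 1 to 4 it stood at 11834, 9905, 14194 and 10928 CPM. Every LOS library was above every control, and the controls were spread far less than the LOS libraries. The log2 difference was 0.58 ± 0.08 (SE), with an adjusted p of 0.00243. let-7a-5p, cut from several hairpins in mammals and listed here under a mixed precursor, as let-7f was, showed the same separation. Its controls lay at 4532, 5006, 4778, 4475 and 4566 CPM and its LOS libraries at 6804, 5557, 7399 and 6485 CPM. It rose by 0.49 ± 0.07 on the log2 scale (adjusted p 0.00243).

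miR-98, whose hairpin lies with that of a let-7f copy in the X-linked gene HUWE1, stood at 481, 460, 498, 513 and 454 CPM in controls. It stood at 652, 578, 750 and 682 CPM in LOS 1 to 4, so that the groups again did not overlap. The log2 difference was 0.47 ± 0.07 (adjusted p 0.00329). let-7g, which comes from 1 hairpin, stood at 1079, 1106, 1092, 1076 and 1030 CPM in controls and at 1525, 1267, 1804 and 1503 CPM in LOS. It rose by 0.50 ± 0.08 (adjusted p 0.00418), with all LOS libraries above all controls.

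let-7d was the least abundant guide strand of the family, at 310, 293, 295, 301 and 290 CPM in controls and 400, 330, 477 and 405 CPM in LOS. Its groups did not overlap, although LOS 2 came close to control 1, and its log2 difference was 0.44 ± 0.08 (adjusted p 0.0143). let-7i stood at 2751, 2189, 2368, 2583 and 2243 CPM in controls and at 3076, 2735, 3265 and 3351 CPM in LOS. Here the groups overlapped, since LOS 2 lay just below control 1. Its difference of 0.36 ± 0.07 passed with an adjusted p of 0.0270, and it lost its call when LOS 1, 3 or 4 or control 2, 3 or 5 was left out, with an adjusted p of up to 0.122. It was not called either when the ART libraries were left out of the fit (adjusted p 0.0907).

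The other 3 guide strands did not pass the test. let-7c stood at 515, 325, 350, 451 and 303 CPM in controls and at 535, 487, 736 and 681 CPM in LOS. Its mean difference, 0.65 ± 0.16, was larger than that of any called member, but its controls were more scattered and the adjusted p was 0.0885. It was called without LOS 2 (0.0450), without control 1 (0.0202), with upper-quartile scaling (0.0180) and in DESeq2 (0.00997). let-7b stood between 263 and 390 CPM in controls and between 365 and 446 CPM in LOS, a difference of 0.34 ± 0.11 (adjusted p 0.153). let-7e differed by 0.16 ± 0.24 (adjusted p 0.793). In let-7e, 3 LOS libraries lay above every control and the fourth, LOS 2, below every control.

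**Figure D2:**
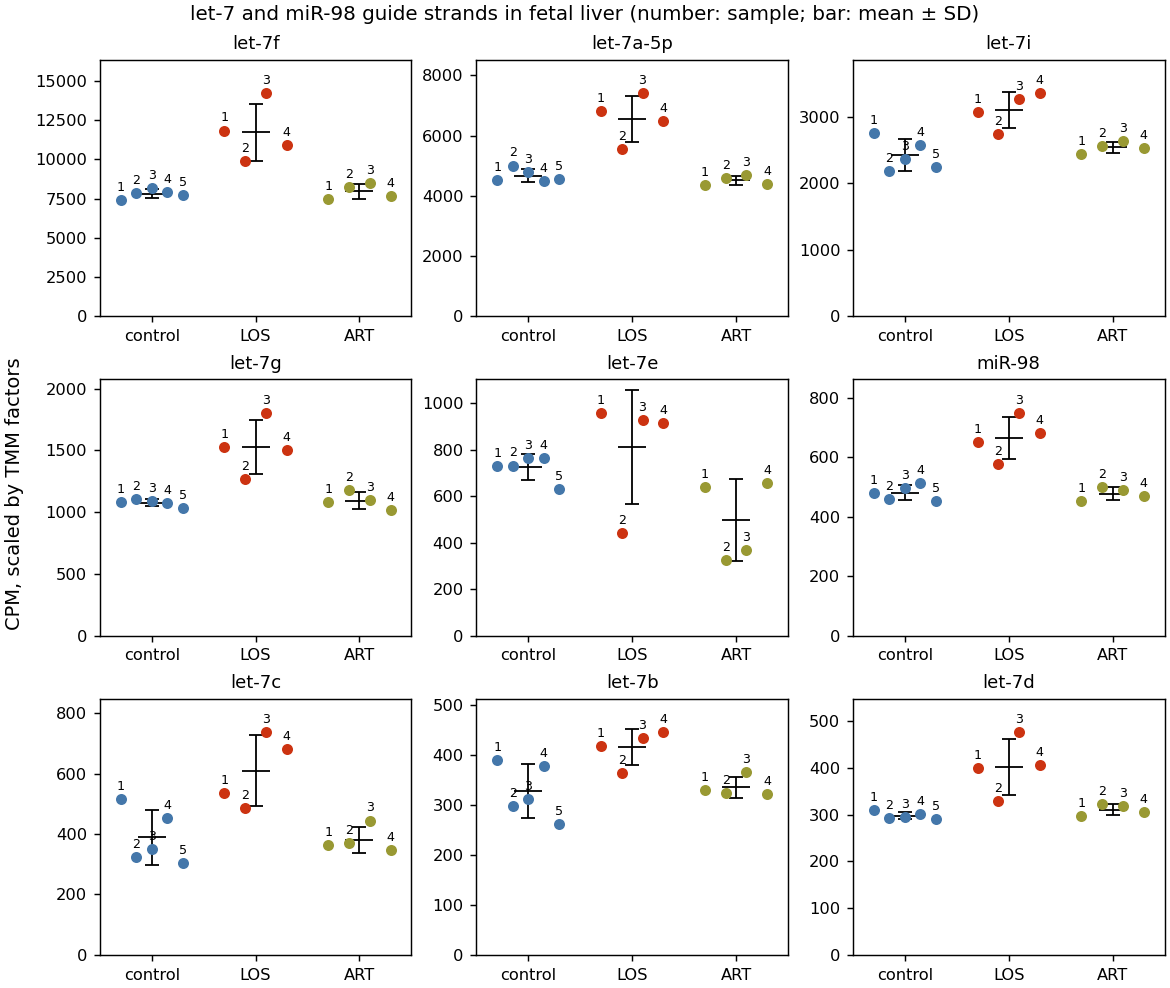
Each panel shows one let-7 guide strand, with CPM on the vertical axis, a point for each of the 5 control, 4 LOS and 4 ART liver libraries (the number is the sample's number) and a bar for the mean ± SD. LOS points lie above the control and ART points in let-7f, let-7a-5p, let-7g, miR-98 and let-7d, LOS 2 is the lowest LOS point in all 9 panels, and let-7e is split by LOS 2, ART 2 and ART 3.

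The 4 LOS fetuses kept much the same order from one family member to the next. LOS 2 was the lowest of the LOS libraries in 9 of 9 guide strands, and LOS 3 was the highest in 6. Summed over the 9 guide strands, the family made up 17483 to 18609 CPM in the controls and 26205, 21667, 29988 and 25396 CPM in LOS 1 to 4. The lowest LOS sum thus lay above the highest control. Most of the sum came from let-7f and let-7a-5p, both called above, so it gives no support separate from those members. The ART fetuses, which share the conception method of the LOS group but not the diagnosis, had sums from 17399 to 18922 CPM, about the range of the controls. For let-7f the ART levels were 7438, 8228, 8507 and 7663 CPM, all below the lowest LOS library.

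The passenger strands of the family were much less abundant and none was called. All 5 that were listed were higher on average in LOS, with a median log2 difference of 0.35 against 0.01 for all 563. let-7f-1-3p stood at 20, 15, 16, 12 and 9 reads in controls and 34, 20, 48 and 32 reads in LOS. In CPM its LOS libraries all lay above its controls, with a difference of 0.97 ± 0.26 and an adjusted p of 0.107. miR-98-3p differed by 0.42 ± 0.14 (adjusted p 0.161), let-7a-3p by 0.35 ± 0.15 (0.342), let-7e-3p by 0.25 ± 0.33 (0.784) and let-7d-3p by 0.12 ± 0.14 (0.741). Summed, the passenger strands ranged from 105 to 112 CPM in controls and from 108 to 166 CPM in LOS, so the sums overlapped.

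Hairpins of the miR-99, miR-100 and miR-125 families lie beside some of the let-7 hairpins in shared clusters. Of 11 listed strands, 6 were higher and 5 lower in LOS, the median log2 difference was 0.02, and none was called. miR-99b differed by -0.01 ± 0.14, miR-100 by -0.20 ± 0.20 and miR-125a by -0.08 ± 0.09. The strands of miR-99a were higher, miR-99a-5p by 0.15 ± 0.16 (adjusted p 0.706) and miR-99a-3p by 0.34 ± 0.16 (0.362). The strands were not matched to the let-7 member that shares each cluster. Across the table, 115 hairpins had both arms listed, and both arms differed in the same direction in 88. The Pearson correlation of the arms' log2 differences across these hairpins was 0.67, a description over pairs that share hairpin and library.

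miR-2408, a cattle miRNA with no function known well enough to state, was read 46, 44, 55, 7 and 50 times in controls 1 to 5 and 6, 5, 11 and 5 times in LOS 1 to 4. In CPM the controls stood at 11.6, 12.3, 14.2, 2.08 and 12.1 and the LOS libraries at 1.20, 1.31, 2.55 and 1.05. Control 4 was as low as the LOS libraries, so the groups overlapped. The ART libraries held 55, 54, 42 and 37 reads, like the other controls. It fell by 2.78 on the log2 scale (SE 0.45, adjusted p 0.00418). It was not listed in the kidney, skeletal muscle or tongue tables.

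Counting miRNAs whose groups did not overlap gave a somewhat wider set. All 4 LOS libraries lay above all 5 controls in 13 miRNAs (2.31% of 563): let-7f, let-7a-5p, miR-98, let-7g, let-7d, let-7f-1-3p, miR-503-3p, miR-541, miR-3957, miR-200a-5p, miR-374b-3p, miR-2285q and miR-temp6-3p. All 4 lay below all controls in 12 (2.13%): miR-130b, miR-31, miR-376e, miR-485-3p, miR-25, miR-122-3p, miR-1388-5p, miR-301b, miR-150, miR-376d, miR-temp36-3p and miR-temp77-5p. Names with temp are provisional names in the deposited table. Among the first set 6 were let-7 strands. None of the second set was called in edgeR, and 8 of its 12 were called in DESeq2: miR-130b, miR-31, miR-376e, miR-485-3p, miR-25, miR-122-3p, miR-1388-5p and miR-temp36-3p. DESeq2 called 20 of all 563. The set was chosen by its separation in the same libraries, so the DESeq2 calls give it no separate support.

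Of the miRNAs leading on the lower side without passing the test, miR-130b stood at 515, 523, 535, 537 and 623 CPM in controls and 406, 391, 490 and 421 CPM in LOS. Its difference was -0.36 ± 0.08 (adjusted p 0.0669). It was called in DESeq2 (0.00285) and, in edgeR, with RLE scaling (0.0429), with miRNAs under a mean of 10 CPM left out (0.0440), with the 3 most abundant miRNAs removed (0.0298), without the ART libraries (0.0438), and without control 1, LOS 3, ART 1 or ART 2 alone (0.0148 to 0.0359). miR-31 stood between 490 and 637 CPM in controls and between 364 and 465 CPM in LOS, a difference of -0.46 ± 0.11 (adjusted p 0.0808; 0.00808 in DESeq2). In both miRNAs the gap between the groups was smaller than the spread of the controls. miR-376e differed by -0.20 ± 0.05 (adjusted p 0.106), miR-485-3p by -0.26 ± 0.08 (0.131) and miR-temp31-3p by -0.55 ± 0.16 (0.131). miR-temp36-3p had the second largest drop in mean, with 41, 86, 34, 41 and 76 reads in controls and 3, 24, 27 and 8 in LOS. Its difference of -2.04 ± 0.60 had an adjusted p of 0.138, and in LOS its reads varied several fold between libraries. On the higher side, miR-503-3p differed by 0.45 ± 0.12 (adjusted p 0.0885) and miR-541 by 0.40 ± 0.11 (0.0986).

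The lists of miRNAs tied to cell types gave no called member in edgeR, and several leaned one way. All 10 hepatocyte strands had lower means in LOS, with a median log2 difference of -0.15 against 0.01 for all miRNAs, and 5 had an unadjusted p under 0.05, against 79 of all 563. miR-122, which regulates cholesterol and fatty acid genes in hepatocytes, stood at 17583, 19597, 18284, 18722 and 19221 CPM in controls and at 15959, 18430, 16549 and 14164 CPM in LOS. LOS 2 lay inside the control range and the other 3 below it, and the difference was -0.20 ± 0.06 (adjusted p 0.153; 0.0296 without LOS 2). Its passenger strand miR-122-3p lay below every control in all 4 LOS libraries (-0.17 ± 0.05, adjusted p 0.148 in edgeR and 0.0399 in DESeq2). miR-192 differed by -0.13 ± 0.06 and miR-148a by -0.08 ± 0.07. miR-215, the largest difference in the list at -0.90 ± 0.39, rested on control 4, which stood at 993 CPM against 212 to 304 in the other controls and 207 to 225 in LOS. Summed, the hepatocyte strands ranged from 165976 to 186295 CPM in controls and from 151802 to 174948 in LOS. In a bulk tissue, fewer cells of a type and less RNA per cell cannot be told apart.

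Strands of smooth muscle, stellate cells and fibroblasts, the vessel wall and matrix-forming cells of the liver, leaned the other way. All 9 had higher means in LOS, against 297 of all 563 miRNAs, with a median of 0.25. An unadjusted p under 0.05 was found in 3 of the 9, against 79 of all 563. miR-143 differed by 0.18 ± 0.08 (adjusted p 0.342), miR-199a-3p by 0.44 ± 0.20 (0.356) and miR-214 by 0.54 ± 0.23 (0.342). miR-199a-3p stood at 3192, 2044, 2075, 3164 and 1723 CPM in controls and 2773, 2521, 4395 and 3515 CPM in LOS, so the groups overlapped. The summed level ranged from 59188 to 77613 CPM in controls and from 74898 to 88101 CPM in LOS, and its part in the let-7 result was not tested. The 3 miR-29 strands, which act on collagen messages, split 2 higher and 1 lower (median 0.12).

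Of the blood lists, the white cell list leaned lower. The 5 red cell strands split 3 higher and 2 lower (median 0.02), with miR-451 at 0.02 ± 0.05 and miR-486 at -0.08 ± 0.06. Of 9 white blood cell strands 8 had lower means (median -0.12), against 266 of all 563 miRNAs. An unadjusted p under 0.05 was found in 2 of the 9, against 79 of all 563. The summed level ranged from 6530 to 7215 CPM in controls and from 6094 to 6566 CPM in LOS. miR-150, of mature lymphocytes, stood at 284, 278, 407, 279 and 293 CPM in controls and at 204, 231, 246 and 270 CPM in LOS. Its groups did not overlap, and the difference of -0.38 ± 0.12 had an adjusted p of 0.161. The 3 endothelial strands were all slightly higher (median 0.06), led by miR-126-5p at 0.09 ± 0.07.

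In the epithelial list, miR-200 family members and miR-429, 6 of 7 strands had higher means (median 0.20), against 297 of all 563 miRNAs. In 1 of the 7 the unadjusted p was under 0.05, against 79 of all 563. The summed level ranged from 680 to 815 CPM in controls, from 756 to 893 CPM in LOS and from 671 to 963 CPM in ART livers. Lists of tissues other than liver were also read. The 3 listed skeletal and heart muscle strands split 2 higher and 1 lower (median 0.32), with miR-133a at 0.32 ± 0.31 and miR-499 at -0.31 ± 0.21. Their summed levels were 75.0 to 92.0 CPM in controls and 71.5 to 147 CPM in LOS. The third strand, miR-133b, stood at 2.26, 3.35, 5.15, 1.19 and 4.36 CPM in controls and 15.5, 20.9, 2.09 and 8.20 CPM in LOS, a difference of 1.80 ± 0.87 (adjusted p 0.362). It was also high in ART 1, at 28.7 CPM. The 6 neuronal strands split evenly (median 0.04), and the 4 kidney and HOX cluster strands were all higher (median 0.05), with miR-10a at 0.01 ± 0.12.

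**Figure D3:**
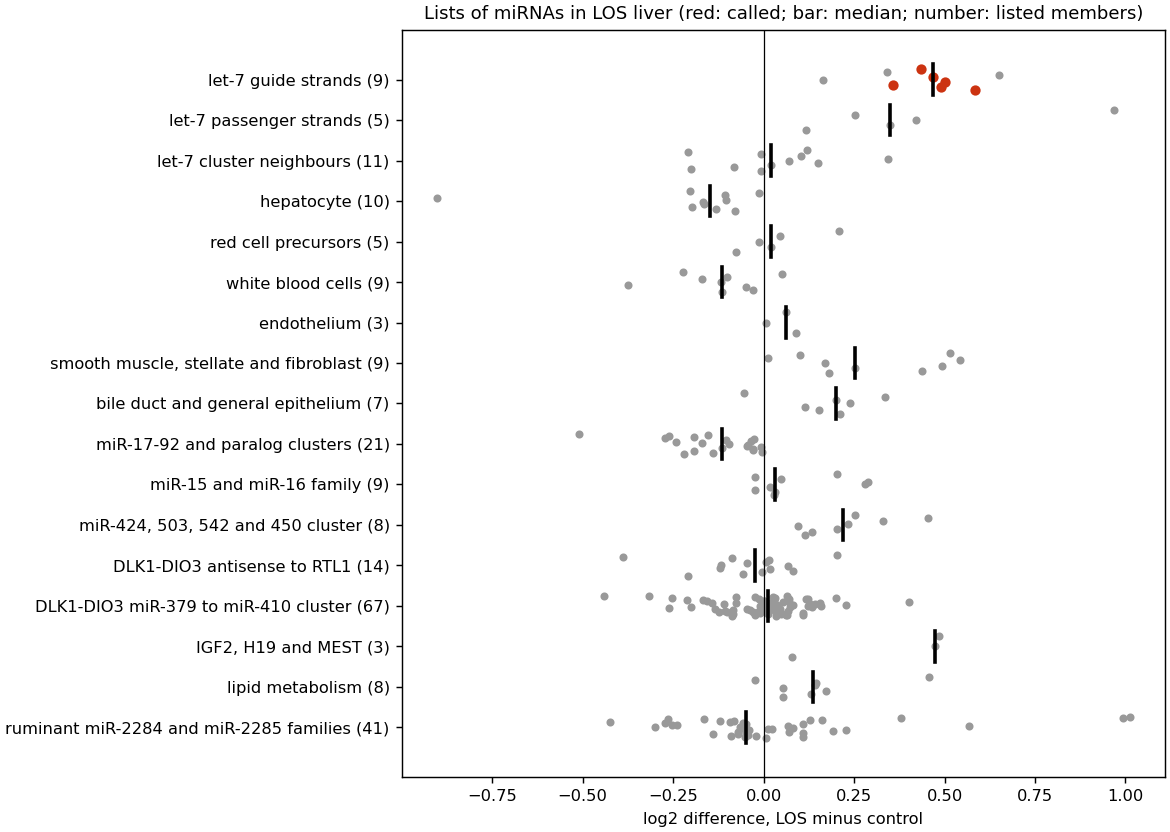
Each row is a list of miRNAs, with the number of listed strands in brackets, and each point is the log2 difference of 1 strand, LOS minus control; black bars are medians and red points the called miRNAs. All called points lie in the row of let-7 guide strands, the hepatocyte and miR-17-92 rows lie wholly below 0, and the smooth muscle and miR-424 rows lie wholly above it.

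Growth-related clusters also gave no called member in edgeR, while DESeq2 called 3 of the 21 strands of the miR-17-92 list, against 20 of all 563 miRNAs. The miR-17-92 cluster and its paralogs, which promote cell division and are repressed in many tissues as these mature, had lower means in 21 of 21 strands, with a median of -0.11. An unadjusted p under 0.05 was found in 3 of the 21, about the share of the whole table (79 of 563). miR-92a, the fifth most abundant miRNA of the table, stood at 59578, 58772, 55267, 56450 and 62085 CPM in controls and at 50801, 48156, 56492 and 45079 CPM in LOS. LOS 3 lay within the controls and the other 3 below them, and the difference was -0.22 ± 0.06 (adjusted p 0.107 in edgeR and 0.0273 in DESeq2; in edgeR, 0.0471 with the 3 most abundant miRNAs removed, 0.0148 without LOS 3 and 0.0461 without ART 1). miR-25 was below every control in all 4 LOS libraries (-0.14 ± 0.04, adjusted p 0.138 in edgeR and 0.0349 in DESeq2), and miR-19b differed by -0.19 ± 0.06 (0.131 and 0.0374). The X-linked cluster of miR-424, miR-503, miR-542 and miR-450 had higher means in 8 of 8 strands (median 0.22), against 297 of all 563 miRNAs. In 2 of the 8 the unadjusted p was under 0.05, against 79 of all 563. Summed levels overlapped, at 5601 to 7356 CPM in controls, 6493 to 7840 CPM in LOS and 6185 to 9295 CPM in ART livers. The most abundant strand of the cluster, miR-450b, differed by 0.11 ± 0.12. The miR-15 and miR-16 family, which restrains the cell cycle, had 7 of 9 strands higher with a median of 0.03, and miR-16b differed by 0.03 ± 0.05.

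LOS is tied to faulty genomic imprinting, in which only 1 parental copy of a gene is active, so miRNAs of imprinted regions were examined as lists. The largest, the miR-379 to miR-410 cluster of the DLK1-DIO3 region, had 38 strands higher and 29 lower, a median of 0.01 and none called in edgeR. DESeq2 called miR-376e (adjusted p 0.0164), miR-485-3p (0.0399) and miR-541 (0.0399) among the 67 strands of this cluster, against 20 calls among all 563 miRNAs. Its member miR-411a, the most abundant miRNA of the table, stood at 85763 to 91653 CPM in controls and 80258 to 87973 CPM in LOS (-0.09 ± 0.04, adjusted p 0.373). The strands antisense to RTL1 in the same region split 6 higher and 8 lower (median -0.02), with miR-127 at -0.21 ± 0.10 (adjusted p 0.352). miR-483, which lies within IGF2, stood between 502 and 737 CPM in controls and between 538 and 710 CPM in LOS, a difference of 0.08 ± 0.12. miR-335, which lies within MEST, stood at 222, 162, 133, 166 and 150 CPM in controls and 180, 152, 237 and 355 CPM in LOS (0.47 ± 0.21, adjusted p 0.352), with overlapping groups. miR-675, which is cut from H19, was not listed. With miR-335-3p, these 3 strands had a median of 0.47.

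At the GNAS region, miR-296-3p stood at 267, 293, 254, 256 and 256 CPM in controls and 275, 318, 453 and 294 CPM in LOS. LOS 3 stood far above the rest, and the difference of 0.34 ± 0.12 (adjusted p 0.239) was 0.16 ± 0.08 without it. The 2 strands of miR-296 had a median of 0.32.

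The remaining lists gave no called member in edgeR. Medians were 0.03 for 10 miR-30 strands, 0.01 for 4 miR-26 strands and -0.09 for the 2 listed strands of the miR-34 and miR-449 family, which responds to p53. miR-210, which responds to low oxygen, differed by -0.13 ± 0.08. Of 8 strands tied to lipid metabolism, 7 had higher means (median 0.14), with miR-103 at 0.13 ± 0.05 and miR-107 at 0.17 ± 0.08. An unadjusted p under 0.05 was found in 2 of the 8, against 79 of all 563 miRNAs. The 41 strands of the ruminant miR-2284 and miR-2285 families split 17 higher and 24 lower (median -0.05). Of the 63 strands with temporary names, 44 had lower means (median -0.11), against 266 of all 563 miRNAs. An unadjusted p under 0.05 was found in 13 of the 63, against 79 of all 563. DESeq2 called miR-temp36-3p (adjusted p 0.0202) and miR-temp43-3p (0.0420) among these 63 strands, against 20 calls among all 563 miRNAs.

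The other tissues show whether the let-7 difference was shared. In kidney, let-7f stood at 12554, 12020, 12213 and 11534 CPM in controls 1 to 4 and at 11064, 11711, 12382 and 12688 CPM in LOS 1 to 4, with the groups interleaved. In skeletal muscle it stood at 9803, 10811, 10661 and 10812 CPM in controls and 9563, 10385, 8487 and 7984 CPM in LOS, where 3 of 4 LOS libraries lay below every control. The LOS difference in let-7f was -0.01 ± 0.06 in kidney (adjusted p 0.987) and -0.21 ± 0.09 in muscle (adjusted p 0.374). Of the 9 guide strands, 1 was higher and 8 lower in kidney (median -0.09), and 2 were higher and 7 lower in muscle (median -0.18), against 9 higher in liver (median 0.47). miR-98 was an exception in muscle, where it differed by 0.43 ± 0.18 (adjusted p 0.360). None of the guide strands was called in kidney or muscle. In the 9 control and 7 LOS tongues, let-7f ranged from 14173 to 19512 CPM and from 16607 to 18765 CPM.

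**Figure D4:**
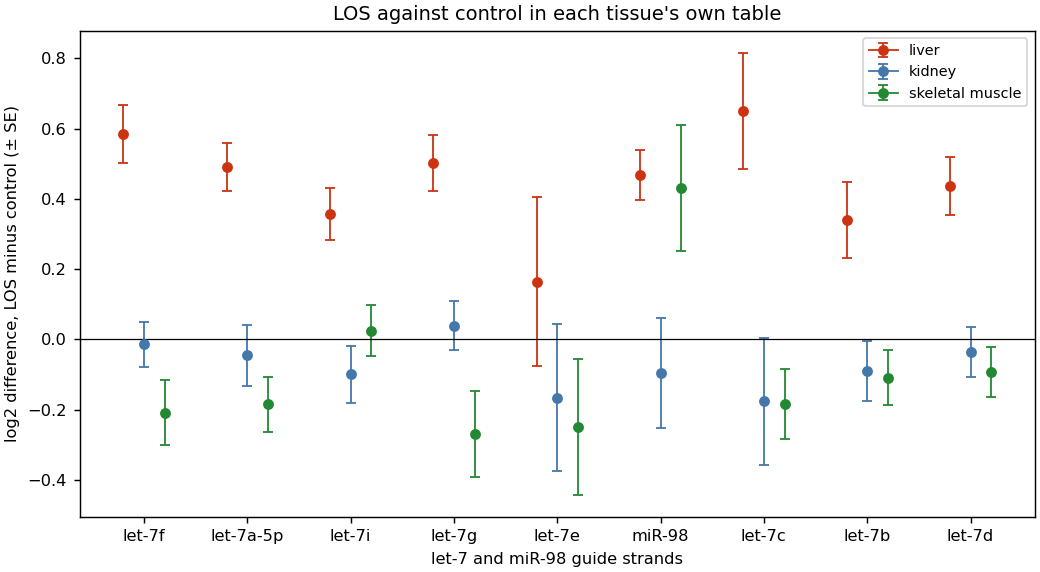
For each let-7 guide strand, points show the log2 difference, LOS minus control, in the tables of liver (red), kidney (blue) and skeletal muscle (green), with bars of 1 SE. All 9 liver points lie above 0, while kidney and muscle points lie near or below 0 except miR-98 in muscle at 0.43.

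The difference between tissues was tested itself, over 24 libraries of controls 1 to 4 and LOS 1 to 4 and the 389 miRNAs listed in liver, kidney and muscle. The LOS difference varied between the 3 tissues in 5 miRNAs (1.29% of 389): let-7f (adjusted p 0.0224), let-7a-5p (0.0269), let-7g (0.0363), miR-296-3p (0.0363) and let-7d (0.0414). For let-7f the LOS difference in liver exceeded that in muscle by 0.80 ± 0.13 (adjusted p 0.00661) and that in kidney by 0.55 ± 0.13 (adjusted p 0.122). For let-7a-5p the excess was 0.68 ± 0.12 over muscle (0.00845) and 0.48 ± 0.12 over kidney (0.122). Liver against muscle gave 9 calls (2.31% of 389), among them let-7c at 0.76 ± 0.19 (adjusted p 0.0468). Liver against kidney gave 0 calls in edgeR and 0 in limma-voom, with 38 unadjusted p under 0.05. miR-98 did not separate liver from muscle (0.01 ± 0.21).

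miR-296-3p differed from the let-7 members in that its larger LOS difference was in muscle, 0.78 ± 0.14 (adjusted p 0.0526), against 0.34 in liver and 0.29 ± 0.16 in kidney. The 5 calls of the tissue test depended on the fetuses included. The count was 0 when LOS 1, LOS 3 or any 1 of the controls was left out, it was 5 without LOS 4, of which 2 were among the 5 above, and 26 without LOS 2, and it was 0 with library totals in place of TMM factors.

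let-7e, the member that did not follow the rest, set 1 sample number apart in every tissue. In liver LOS 2 stood at 443 CPM, or 57.9% of the median of the other LOS and control libraries, while LOS 1, 3 and 4 stood at 959, 930 and 915 CPM. The sample numbered LOS 2 was also lowest in kidney (703 CPM, 52.1% of the median of the others), in skeletal muscle (439 CPM, 50.1%) and in tongue (803 CPM, 53.2%). Among the ART livers, ART 2 and ART 3 were low as well, at 325 and 368 CPM against 641 and 658 CPM in ART 1 and ART 4. Its passenger strand let-7e-3p was lowest in the sample numbered LOS 2 too, with 13 reads in liver against 26 to 94 in the other 8 libraries. miR-99b and miR-125a, cut from the same cluster, showed no such drop in liver, where LOS 2 stood at 6625 and 2902 CPM against ranges of 5078 to 6670 and 2883 to 3267 CPM in the other libraries. The sample numbered LOS 2 was the highest of its tissue for both in kidney, and in skeletal muscle its miR-125a was the lowest of 8 libraries, at 2076 CPM against 2376 to 3294. Without LOS 2 the let-7e difference in liver was 0.37 ± 0.20 (adjusted p 0.428).

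**Figure D5:**
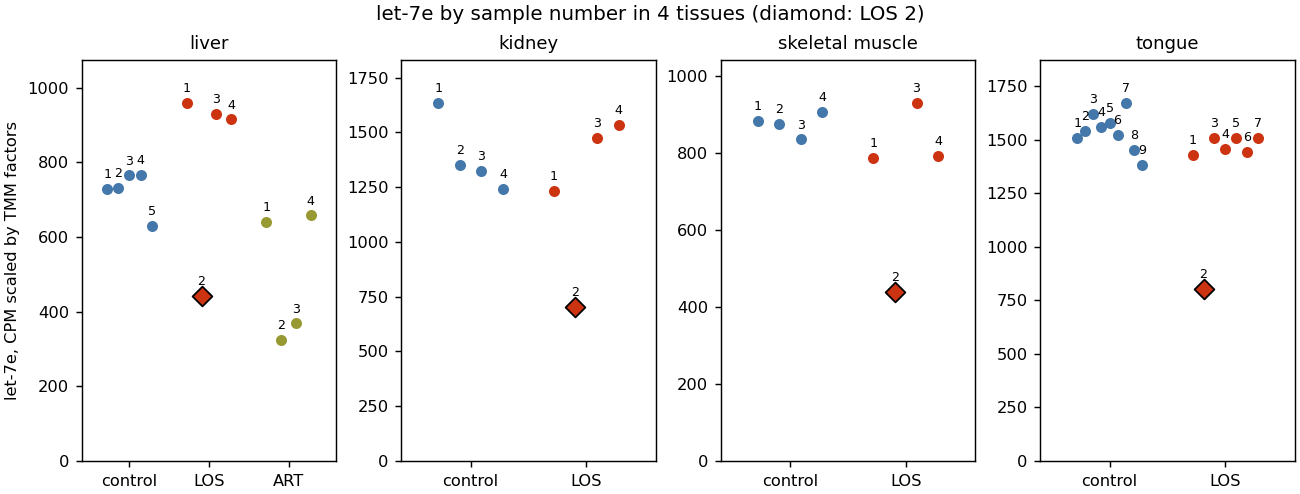
let-7e is shown in CPM for every control and LOS library of liver, kidney, skeletal muscle and tongue and for the ART livers, with the sample's number beside each point. The diamond, LOS 2, lies at 443, 703, 439 and 803 CPM, below every other LOS and control point of its tissue.

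Leaving out LOS 2, the LOS library with the lowest let-7 levels, raised the number of calls in liver from 7 to 12 (9 higher, 3 lower). DESeq2 made 20 calls (9 higher, 11 lower), including all 7 of edgeR. Without the ART libraries in the fit, edgeR made 9 calls (5 higher, 4 lower): let-7i was lost, and miR-130b, miR-31 and miR-1388-5p were added.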

How the data were processed

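Small RNA libraries of whole fetal liver were analysed from the raw read counts deposited by the authors, a table of whole-number counts per miRNA and library. Bowtie and genome build UMD 3.1 are named, per the submitters' processing notes. For the counting tool and the miRNA annotation, the name and version were not given in the sources used here. Reads of near-identical family members (let-7a and let-7f, let-7b and let-7c) may be split by the counting, so the members are not independent. Of 563 miRNAs, 379 carry a miRBase identifier and 63 a temporary name.

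Counts of 5 control, 4 LOS and 4 ART livers were fitted together with edgeR 4.0.16 (quasi-likelihood test, TMM factors 0.969 to 1.03 over the 13 libraries, filterByExpr, R 4.3.3), and p-values were adjusted by Benjamini-Hochberg over all 563. The contrast was LOS minus control; a miRNA was called at an adjusted p under 0.05. Levels are CPM on TMM-scaled library sizes and compare libraries, not tables. SE is the standard error of the log2 difference. The tissue test was an edgeR F test with a term for the fetus. Alternatives used limma 3.58.1 (voom), DESeq2 1.42.0, other scalings, filters and left-out libraries. The tests were also run on simulated counts, without a fetus effect for the tissue test. The outcome is not given here, so no support is drawn from it.

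The miRNAs named were the called ones, the 10 lowest p-values in each direction, the 5 most abundant, the 3 most abundant of each list and those called in the tissue test; others were named after their values were seen, where a small set or a single list member is described. The members and lists were chosen with earlier results of these data known. Numbers shared by control and LOS samples do not pair them. Numbers shared across tissues were used as fetus numbers: same-numbered samples of a group deviated together across tissues (median correlation 0.187, over 0.1 in 17 of 24 pairs) more than different numbers did (median -0.083, 8 of 72). No table of miRNA sequences was used here, so none is printed.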

Additional observations from a re-analysis of the deposited data

Results flagged for a closer look

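The LOS difference varied between liver, kidney and skeletal muscle, by a test of that variation in edgeR, in let-7f (adjusted p 0.0224), let-7a-5p (0.0269), let-7g (0.0363), miR-296-3p (0.0363) and let-7d (0.0414). The test called 0 miRNAs when any single control, LOS 1 or LOS 3 was left out, or with library totals only. Liver against kidney alone gave 0 calls.

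Single libraries stood apart from the rest of their group in 8 of 52 groups of 4 or 5 libraries examined with Dixon's ratio, where chance gives about 1 in 20. let-7e was low in LOS 2 (443 CPM against 915 to 959 in the other LOS livers) and in control 5 (631 CPM against 729 to 766 in the other controls). miR-2408 was low in control 4 (2.08 CPM) and, among LOS livers, high in LOS 3 (2.55 CPM). Control 5 was also the highest control in miR-130b (623 CPM) and miR-376e (354 CPM). miR-503-3p was highest in control 2 (15.1 CPM) among controls, and miR-411a lowest in control 1 (85763 CPM).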

How the results depend on the processing

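The 7 calls in liver became 20 with DESeq2 and 6 to 12 with each library left out in turn, the highest count without LOS 2; the other scalings, filters and fits gave 7 to 9. The median log2 difference of all miRNAs moved by less than 0.05 under every setting tried. The 5 calls of the tissue test became 0 with library totals only, 8 with limma-voom and 0 to 26 with each fetus left out in turn. With a replicate block on the sample number, which the data do not support as a pairing (correlations of same-numbered LOS and control livers -0.09, 0.15, -0.06 and -0.01), edgeR called 0 of 562 in liver, from 8 libraries; without the fetus block the tissue test called 4. Of 2721 alternative values over 123 single results, 2649 were counted as the same, 40 lost a call, 31 gained one and 1 reversed. The same meant keeping direction and side of the threshold, or changing sign within 1 SE of 0 while uncalled. Most of these results were uncalled and counted as the same when they stayed so, so the total says little about the calls. The reversal was miR-10a without LOS 4, at -0.11 (-0.11 to 0.11 over all libraries left out in turn), the cause of which was not tested.

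With 4 LOS fetuses, small differences can be missed, and miRNAs under 10 CPM had a median SE of 0.21 on the log2 scale against 0.06 for the most abundant class.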
